A study of Mus musculus with 2 samples.

Results

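The interferon response and MHC class I genes described here were 41 genes, listed by symbol and found as rows of the 2 lung count tables. Of these, 40 had a row among the 32285 genes in the tables, and *Mx1* was not analysed here. The 40 genes were 7 of MHC class I presentation, 4 transcription factors, 3 sensors of RNA and DNA, 18 antiviral effectors and regulators, and 8 interferon-inducible GTPases. Each had at least 1 UMI in both libraries, where 22531 and 22764 genes of the tables had one.

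Interferons are secreted when a cell detects viral or misplaced nucleic acid, or, for interferon gamma, by activated lymphocytes. Their receptors signal through JAK kinases to STAT proteins. A complex that holds *Stat2* and *Irf9* binds interferon-stimulated response elements (ISRE), and interferon gamma acts largely through gamma-activated sites (GAS). The genes that these switch on block virus entry and replication, damage the vacuoles of intracellular microbes, and raise the display of peptides on MHC class I. In that pathway the immunoproteasome subunits *Psmb8* and *Psmb9* cut proteins, *Tap1* carries the peptides into the endoplasmic reticulum, *Tapbp* helps to load them, and *B2m* with a heavy chain such as *H2-K1* or *H2-D1* presents them to cytotoxic T cells. In the lung, vascular endothelium is known for high MHC class I.

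The data were droplet-based 3′ scRNA-Seq of lung cells, with 1 library from *Cebpa* FF mice (*Cebpa* fl/fl controls) and 1 from *Cebpa* KO mice (the same floxed allele with Sftpc-CreER, which drives the recombinase in alveolar type II (AT2) cells when tamoxifen is given). Lungs were taken 26 weeks after the first tamoxifen injection. Tamoxifen was given in 5 daily injections of 75 mg/kg, with a later weekly round in experiments that ran past 3 months, and the mice, of mixed genetic background, were 3 months old unless stated otherwise. The study states 3 mice per genotype, but cells cannot be traced to single mice. Each genotype is therefore 1 sample, and no difference between them has a replicate check. The labels mention a sorting method and the study describes whole-lung suspensions, so what was sorted, if anything, is not known. No test between genotypes was made. All intervals below are exact 95% intervals of the counts, and cover counting error only.

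There were 69200420 UMIs over 11721 barcodes for *Cebpa* FF and 64697396 over 13373 for *Cebpa* KO. After the filter on genes and mitochondrial counts, 11487 and 13238 cells were kept, with medians of 4835 and 2607 UMIs, and 44 barcodes occurred in both libraries. Cells were assigned to 24 types by raw counts of marker genes, which placed 9736 *Cebpa* FF and 9270 *Cebpa* KO cells. All 24 types had at least 50 cells in the *Cebpa* KO library and 14 of them in the *Cebpa* FF library, and these 14 were compared. Levels are given as CPM, the UMIs of a gene scaled to the same total in each type and library. *Cebpa* was at 154 CPM (interval 146 to 162) in AT2 cells of the *Cebpa* FF library and at 120.2 (104 to 138) in those of the *Cebpa* KO library, so the intervals did not overlap. The bases removed by the deletion are not given in the sources used here, so this 3′ count is a weak check of it. Markers of other cell types differed between the libraries. The summed level of 5 pan-endothelial markers (*Cldn5*, *Cdh5*, *Pecam1*, *Egfl7*, *Ramp2*) was 474 CPM in *Cebpa* FF and 1287 in *Cebpa* KO AT2 cells, and that of *S100a8* and *S100a9*, which are abundant in neutrophils, was 1.43 and 752. Over the 14 types the *S100a8* and *S100a9* level ran from 0.905 to 16.9 CPM in the *Cebpa* FF and from 132 to 1055 in the *Cebpa* KO library, and whether these UMIs came from the gated cells themselves or from free RNA was not tested. These levels are given beside the results they move with.

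Sequence upstream of the genes is shown for 7 members whose levels carry the results below. Promoters of 250 bases before to 50 after the start were found in RefSeq for 33 of the 40 members (build GRCm38.p6). The ISRE letters, GAAA and again GAAA with 2 bases between them on either strand, were in the promoters of 17 of these 33 (51.5%), against 1079 of 27025 genes (3.99%). The letters TTCNNNGAA of the GAS were in 9 (27.3%), against 9.55% of genes. A stretch of each shown promoter is printed 5′ to 3′ on the strand of the gene, with the matching letters in capitals. On the minus strand are *Isg15* (chr4:156200855-156200916) and *Rsad2* (chr12:26456543-26456592). On the plus strand are *Ifit1* (chr19:34640765-34640833), *Ifit3* (chr19:34583353-34583436), *Igtp* (chr11:58199502-58199551), *B2m* (chr2:122147528-122147577) and *Irf1* (chr11:53769904-53769952).
Isg15: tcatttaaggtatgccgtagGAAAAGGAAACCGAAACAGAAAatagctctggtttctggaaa
Rsad2: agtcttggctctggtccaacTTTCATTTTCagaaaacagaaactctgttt
Ifit1: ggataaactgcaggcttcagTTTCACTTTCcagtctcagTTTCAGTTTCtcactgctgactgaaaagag
Ifit3: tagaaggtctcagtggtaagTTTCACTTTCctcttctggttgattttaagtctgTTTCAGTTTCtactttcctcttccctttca
Igtp: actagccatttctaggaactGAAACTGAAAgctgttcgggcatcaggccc
B2m: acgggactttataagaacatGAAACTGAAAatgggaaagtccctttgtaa
Irf1: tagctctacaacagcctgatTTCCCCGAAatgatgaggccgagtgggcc

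The capitals mark ISRE letters in the first 6 and GAS letters in *Irf1*. *Isg15* held 3 overlapping matches, *Ifit1* and *Ifit3* held 2 each. By role, the ISRE letters were in 5 of 6 GTPase promoters (*Gbp2*, *Gbp3*, *Gbp7*, *Igtp*, *Irgm1*), 8 of 14 of the effectors (*Ifit1*, *Ifit3*, *Isg15*, *Oas1a*, *Rsad2*, *Bst2*, *Ifitm2*, *Ifitm3*), both sensors with an entry (*Ifih1*, *Ddx58*), 1 of 4 transcription factors (*Stat2*) and 1 of 7 class I genes (*B2m*). Several members share a chromosome. On chromosome 17 lie 6 of the class I genes, on chromosome 19 the 3 Ifit genes, on chromosome 7 the 3 Ifitm genes with *Irf7*, and on chromosome 3 *Gbp2*, *Gbp3* and *Gbp7*. *H2-K1* and *H2-D1* resemble each other, as do the Ifit, the Ifitm and the Gbp genes among themselves. Reads shared between near-identical copies could be split or lost in the counting. A value of 1 of these genes is therefore less certain than the sum of its group.

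Among the 14 types ranked in the *Cebpa* FF library, the module was led by the endothelium. No leukocyte type was ranked there, while aerocytes, gCap, venous, arterial and lymphatic cells all were. In 10 *Cebpa* FF patrolling monocytes, too few to rank, *B2m* had 276 of 64930 UMIs. The share of all genes highest in an endothelial type was not computed for either library. Of the 40 members, 32 were highest in an endothelial type, 4 in an epithelial type (*Ifi27* and *Ifit3* in AT1, *Ifi35* and *Usp18* in ciliated cells), 3 in platelets (*Ifi47*, *Ifit2*, *Igtp*) and 1 in a mesenchymal type (*Ifitm1* in pericytes). For *Ifi27*, *Ifi47*, *Ifit2*, *Iigp1* and *Rsad2* the next type was of another lineage and its interval overlapped. The class I sum was 9838 CPM in aerocytes, the capillary cells of gas exchange, and 9839 in general capillary (gCap) cells, and these 2 types did not differ beyond counting error. It was lowest in ciliated cells at 1217 CPM, and smooth muscle (1711 CPM) and AT2 cells (1816 CPM) came next. The other mesenchymal types lay above these, from 2275 CPM in myofibroblasts to 2656 in alveolar fibroblasts.

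**Figure D1:**
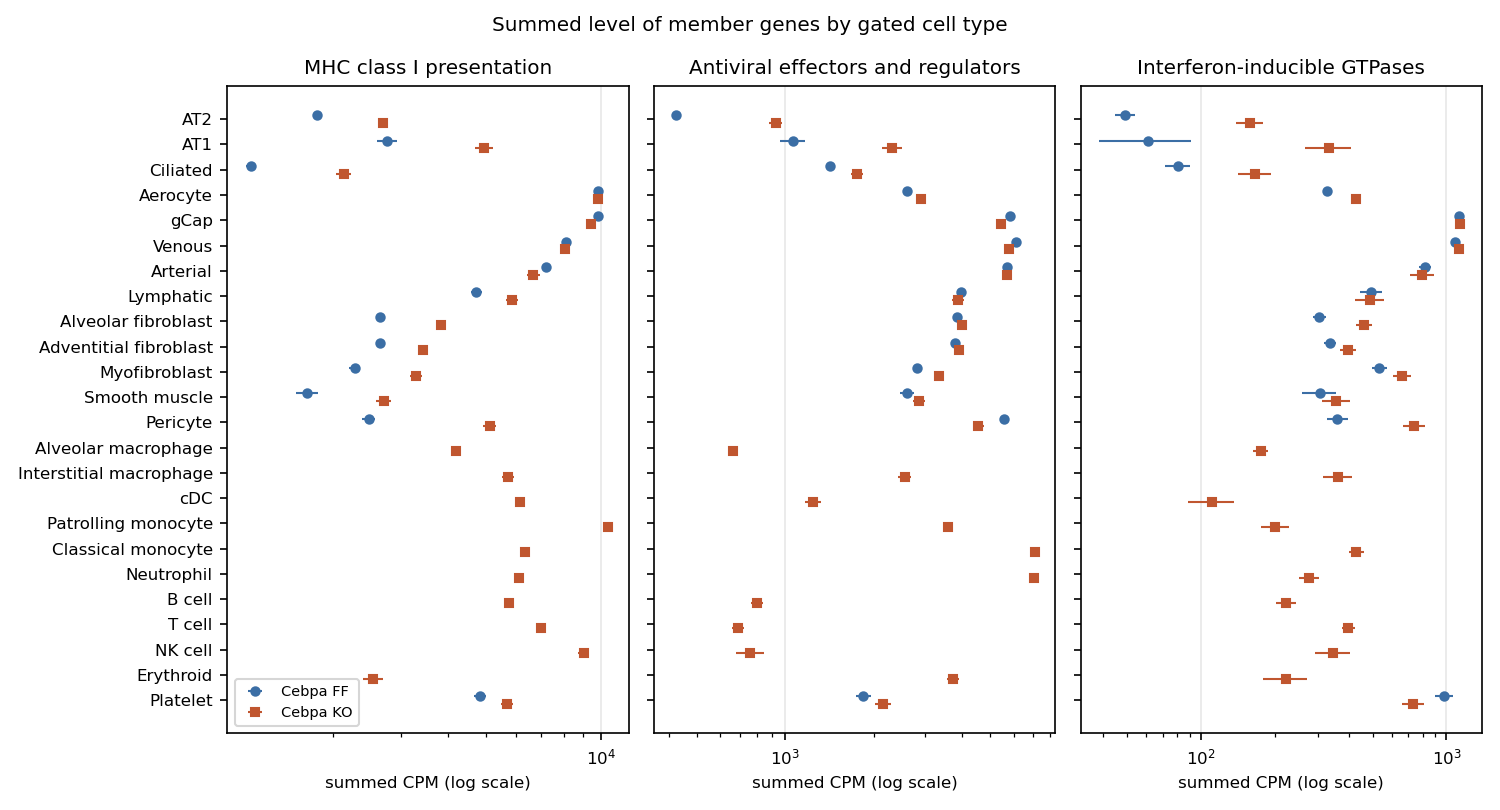
Summed CPM of class I, effector and GTPase members by gated cell type (log axis); blue circles are the *Cebpa* FF and orange squares the *Cebpa* KO library, bars are exact 95% counting intervals. Class I sums were highest in patrolling monocytes (10420.3 CPM), aerocytes and gCap cells.

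The leading class I genes were *H2-D1* and *B2m*. *H2-D1* was at 3957 CPM in aerocytes (interval 3917 to 3998), 3525 in gCap and 538 in ciliated cells of the *Cebpa* FF library. *B2m* was at 3282 CPM in aerocytes (3245 to 3319), 2799.9 in gCap, 2568 in platelets and 203 in ciliated cells. *H2-K1* had another order, with gCap (2519 CPM) above venous (2042) and aerocytes (1911), and smooth muscle lowest at 348 CPM. For all 3, the interval of the highest type lay above that of the next. The processing genes were far lower and were all highest in gCap cells, with *Psmb8* at 328, *Tapbp* at 303, *Psmb9* at 264 and *Tap1* at 100.3 CPM. A UMI is counted once per tagged 3′ end and does not scale with gene length, so levels of different genes are compared here on the CPM scale.

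In gCap, venous and mesenchymal cells of the *Cebpa* FF library the highest effector RNAs were of Ifitm genes, whose proteins hinder virus entry at membranes. In its AT1 cells *Ifi27* was the highest effector, at 285 CPM. In the *Cebpa* FF library the effector sum was 6103 CPM in venous, 5828 in gCap and 5715 in arterial cells, against 425 in AT2 cells. Aerocytes were lower at 2604 CPM, so the 2 capillary types, whose class I sums did not differ in this library, differed in the effector sum. *Ifitm3* was at 2869 CPM in gCap cells (2846 to 2892) and at 3175 in venous cells (3113 to 3237), while it was not among the 5 highest members in *Cebpa* FF aerocytes. There the order was *H2-D1*, *B2m*, *H2-K1*, *Ifitm2* (989 CPM) and *Bst2* (499), the tetherin that holds budding virions. In mesenchymal types *Ifitm3* led every list, with 1889 CPM in pericytes, 1777 in adventitial fibroblasts, 1725 in alveolar fibroblasts, 1561 in myofibroblasts and 1313 in smooth muscle. *Ifitm2* was highest in venous cells at 1582 CPM, next to arterial at 1536, and those intervals overlapped. *Bst2* was highest in arterial cells at 782 CPM.

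The GTPases, which attack the vacuoles of intracellular microbes, were also highest in vessels. Their sum was 1121 CPM in gCap, 1083 in venous and 816 in arterial cells of the *Cebpa* FF library, and 326 in aerocytes. Platelets reached 979 CPM, most of it from *Igtp*. It was 49.0 CPM in AT2, 60.7 in AT1 and 80.6 in ciliated cells. *Gbp7* was at 264 and *Gbp2* at 177 CPM in gCap cells, and *Iigp1* at 286 in venous cells and 259 in myofibroblasts with overlapping intervals. Transcription factor sums ran from 55.4 CPM in AT1 to 335 in aerocytes, with *Irf1*, an early target of interferon gamma, at 178 CPM in aerocytes. The sensors were low throughout. Their sum was at most 171 CPM, in arterial cells, where *Ddx58* (RIG-I) was at 79.2 and *Ifih1* (MDA5) at 77.9 CPM.

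Some members had a level in 1 type far above all others. *Igtp* was at 657 CPM (594 to 726) in platelets of the *Cebpa* FF and 428 (371 to 491) in those of the *Cebpa* KO library, against 58.4 and 66.6 in the next type, so platelets were far above the rest in both. *Igtp* overlaps *Irgm2* on the same strand, and counts at the overlap may be assigned to either. *Usp18*, the protease that removes *Isg15* from proteins, was at 160.0 CPM in ciliated cells of the *Cebpa* FF and 119 in those of the *Cebpa* KO library, and the next types were at 25.6 and 34.8. *Ifi35* was likewise highest in ciliated cells, at 346 and 279 CPM. Neither of the other effectors at the top of the ciliated list, *Ifitm2* and *Ifitm3*, was higher there than in endothelium.

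Erythroid cells of the *Cebpa* KO library carried the highest *Isg15* and *Rsad2* of any type. *Isg15*, a ubiquitin-like modifier, had 529 UMIs in 137 cells, which is 1274 CPM (1168 to 1387), with classical monocytes next at 226. *Rsad2* (viperin), which makes an antiviral nucleotide, had 432 UMIs, which is 1040.3 CPM (944 to 1143), with neutrophils next at 109. Hemoglobin made 618557 CPM of these cells, so the share among their other RNA was larger still. After each cell was thinned to 1000 UMIs, 37.6% of 101 erythroid cells had *Rsad2* (28.2% to 47.8%) and 27.7% had *Isg15* (19.3% to 37.5%), against 6.16% and 9.11% of neutrophils. The cell with the most UMIs gave 11.8% of those of *Rsad2* and 19.5% of those of *Isg15*. *Ifit1*, *Ifit3* and *Usp18*, which interferon also induces, had 13, 6 and 11 UMIs there. The *Cebpa* FF library held 22 erythroid cells, with 51 UMIs of *Rsad2* and 8 of *Isg15* among 169354, too few cells to compare.

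**Figure D2:**
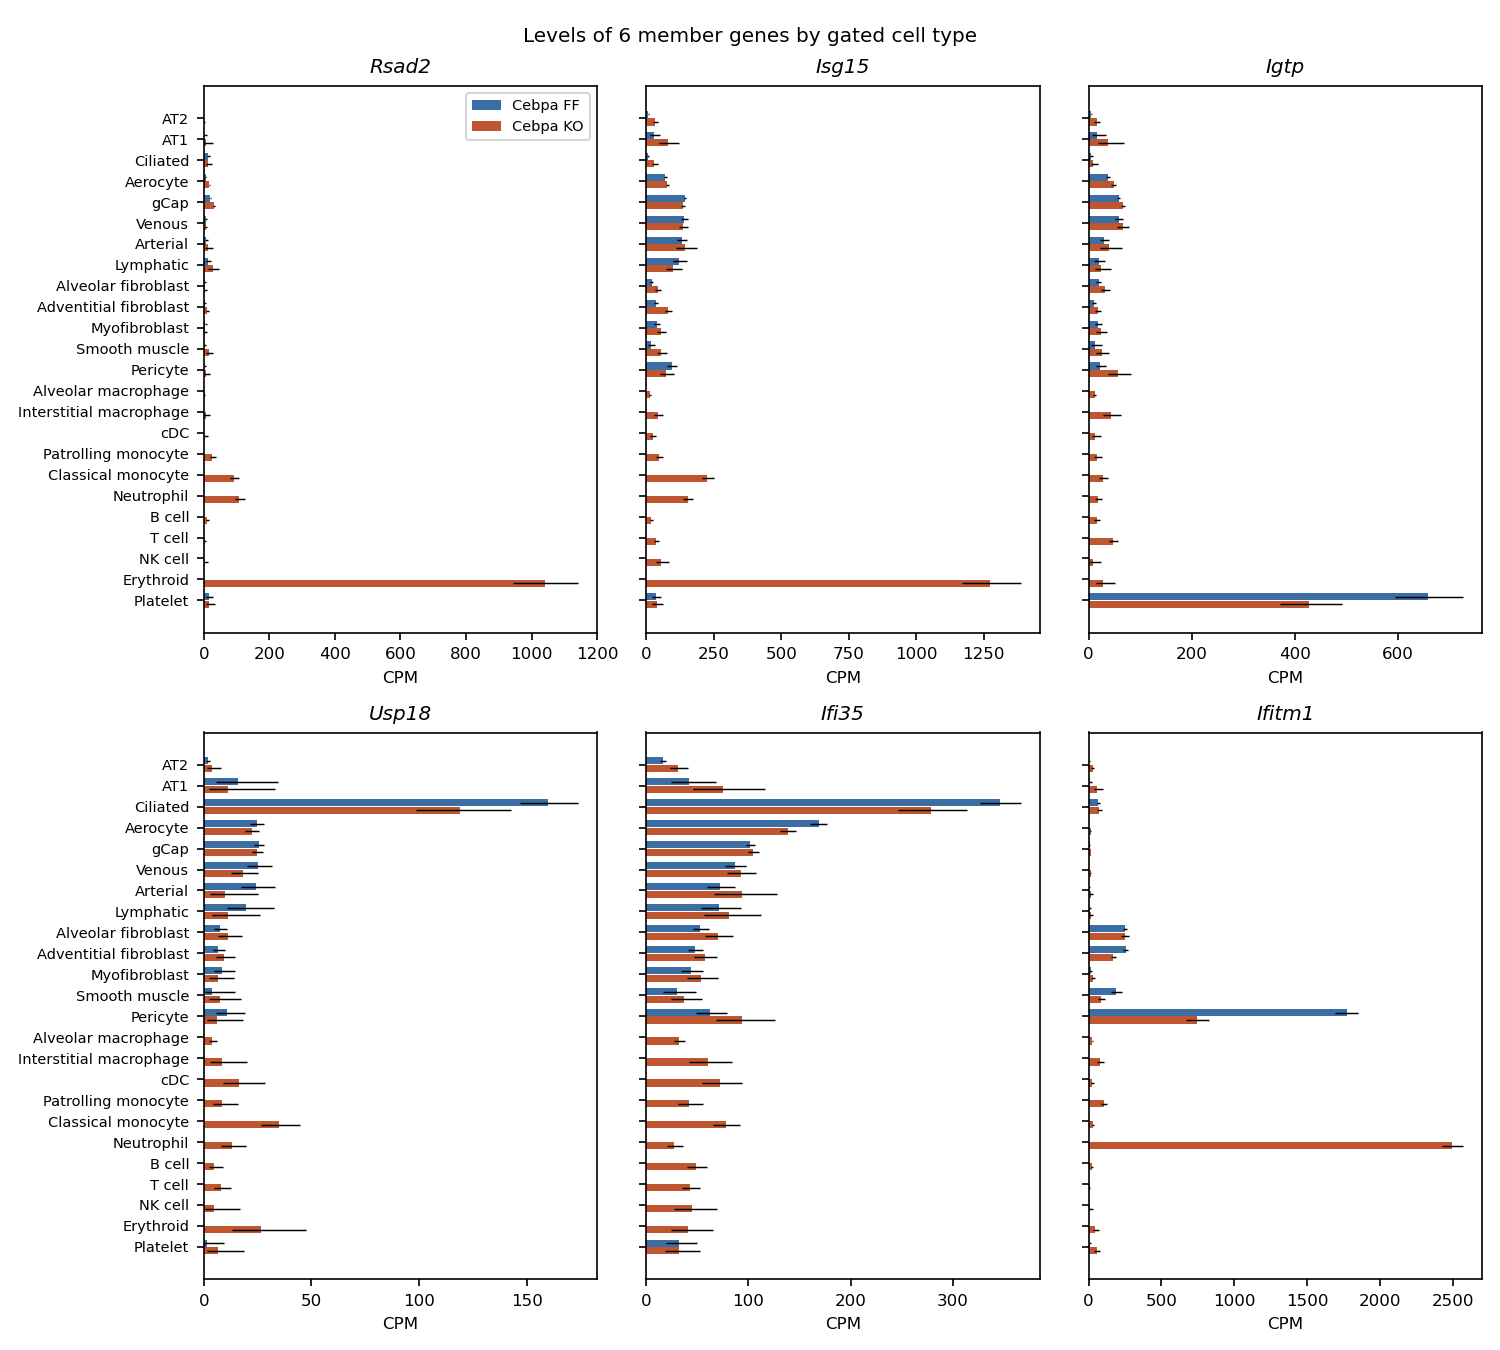
CPM of 6 members by gated cell type; blue bars are *Cebpa* FF and orange bars *Cebpa* KO, lines are exact 95% counting intervals, and types without a blue bar had under 50 *Cebpa* FF cells. *Rsad2* and *Isg15* stand out in erythroid cells, *Igtp* in platelets, *Usp18* and *Ifi35* in ciliated cells, and *Ifitm1* in pericytes and neutrophils.

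Leukocytes were numerous enough to describe only in the *Cebpa* KO library, and with them the order of types changed. There 15 members were highest in an endothelial type, 16 in an immune type, 3 in a mesenchymal type, and 2 each in epithelial cells, erythroid cells and platelets. For *Ifi47*, *Ifit1*, *Ifit3*, *Iigp1*, *Irf1*, *Irf9*, *Irgm1*, *Psmb9* and *Rtp4* the next type was of another lineage and its interval overlapped. Since the *Cebpa* FF library could not be described for these types, the 2 orders are not a comparison of genotypes. Patrolling monocytes had the highest class I sum at 10420.3 CPM, with *B2m* at 4607 (4485 to 4732). Next came aerocytes at 9863, gCap at 9435 and NK cells at 9025, where *H2-K1* reached 2912 CPM. Conventional dendritic cells had the highest *Psmb8*, at 681 CPM (624 to 741), with classical monocytes next at 455. Alveolar macrophages were the lowest leukocytes in class I, at 4197 CPM.

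Classical monocytes and neutrophils led the effectors, with sums of 7095 and 7053 CPM that did not differ beyond counting error. *Ifitm3* was at 4413 CPM in classical monocytes (4317 to 4511), and *Irf7*, which drives the late type I interferon program, was at 163 there against 72.3 in neutrophils. Neutrophils had *Ifitm1* at 2494 CPM (2421 to 2569), *Ifitm2* at 2303 and the highest *Oasl2*, at 186. Part of the classical monocyte signal sat in few cells, since 1 of the 221 held 21.7% of the *Isg15* and 26.3% of the *Rsad2* UMIs. *Zbp1*, a sensor of left-handed nucleic acid, was at 109 CPM in classical and 105 in patrolling monocytes. Lymphocytes had many class I and few effector counts, with effector sums of 691 CPM in T cells, 759 in NK cells and 802 in B cells. Among the 5 highest members of all 3 were *H2-D1*, *H2-K1*, *B2m*, *Psmb8* and *Ifitm3*, whose T cell level of 186 CPM was the lowest of any type in the *Cebpa* KO library.

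For each of the 14 types in both libraries, the ratio of *Cebpa* KO over *Cebpa* FF CPM was taken for members with at least 50 UMIs over both. A member was called at 2-fold or more. The 14 types gave 393 such pairs of a member and a type. Of these, 49 were called higher and 3 lower in the *Cebpa* KO library. The background is the share of all genes with at least 50 UMIs that was called in a type. It ran from 0.769% in venous to 11.6% in AT1 cells for higher, and from 0.565% in aerocytes to 11.6% in AT1 cells for lower. A share over the 14 types together was not computed here. The counts of 49 and 3 therefore have no single background, and the calls are given by type below. Member medians ran from 0.07 in venous to 0.89 in AT1 cells, with platelets (0.18) below aerocytes (0.25), as the plot of log2 ratios shows.

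**Figure D3:**
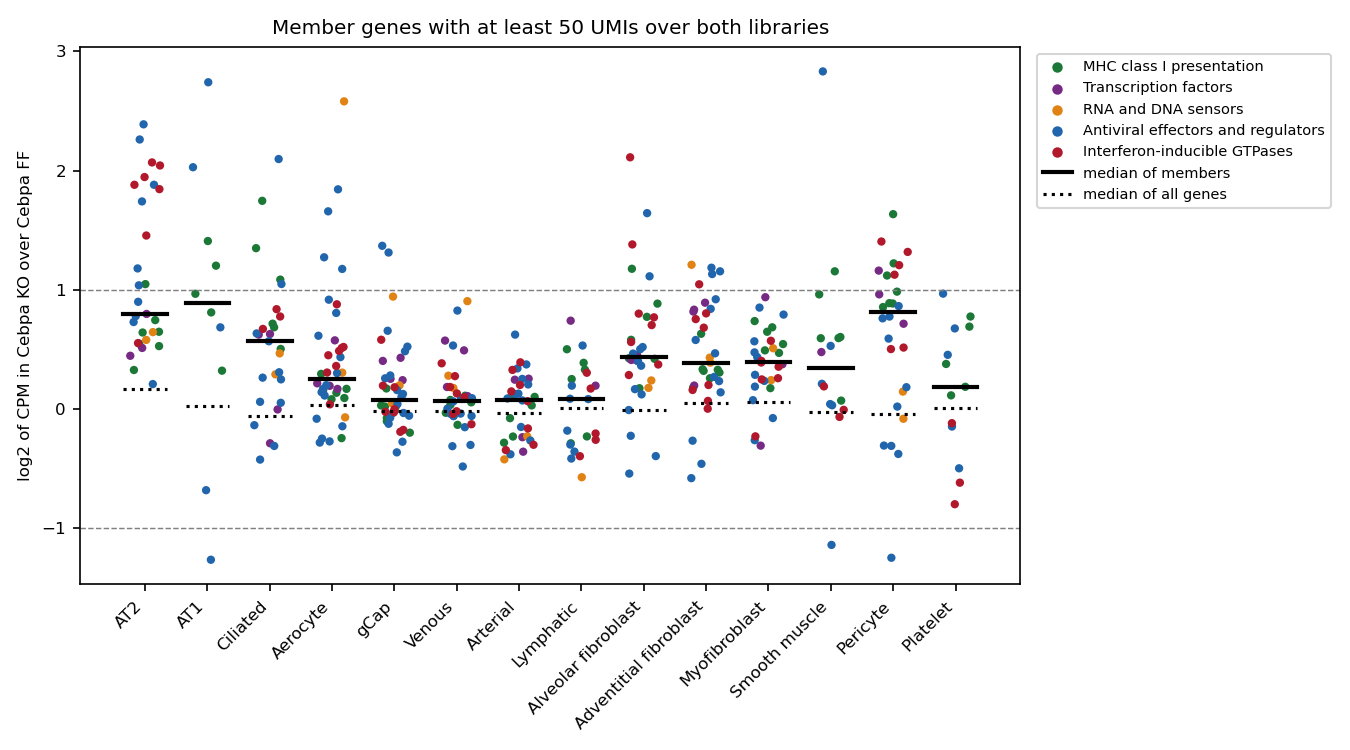
Log2 of *Cebpa* KO over *Cebpa* FF CPM; each point is 1 member with at least 50 UMIs, coloured by role, solid bars are medians of members, dotted bars medians of all genes, and dashed lines mark 2-fold. Member medians were 0.07 or 0.08 in gCap, venous, arterial and lymphatic cells, and 0.57 or more in AT2, AT1, ciliated cells and pericytes.

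The member medians nearest 0 were those of gCap, venous, arterial and lymphatic cells. Median depth in *Cebpa* FF and *Cebpa* KO was 4392 and 5084 UMIs in gCap, 6350 and 6586 in venous, and 4686 and 5510 in arterial cells. In lymphatic cells it was less alike, at 5549 and 2774 UMIs. In gCap cells all 40 members could be read, and 2 were called higher and none lower, where 3.32% of all genes were higher and 1.21% lower. The member median was 0.07 on the log2 scale, against -0.01 for all genes. Venous cells had 36 members and none called in either direction (background 0.769% higher and 0.608% lower). Arterial cells had 33 and none called (1.03% and 3.25%), and lymphatic cells 22 and none (1.55% and 1.57%). The medians of these 3 types were 0.07, 0.07 and 0.08.

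The capillary members that differed were mostly low in level. In gCap cells *Oas2*, an oligoadenylate synthetase that activates RNase L, was at 12.7 CPM (270 UMIs) in the *Cebpa* FF and 32.8 (450 UMIs) in the *Cebpa* KO library, a ratio of 2.58. *Ifitm1* was at 6.88 and 17.1 CPM, a ratio of 2.48. *Zbp1* was close to the limit, at 19.2 and 36.9 CPM, a log2 ratio of 0.94 (0.75 to 1.13). All 4 transcription factors were a little higher, with *Irf7* at a log2 ratio of 0.43 (0.26 to 0.60) and *Irf9* at 0.40 (0.29 to 0.51). *Gbp4* was at 0.58 (0.49 to 0.67) and *Igtp* at 0.19. The class I genes hardly moved, from *H2-D1* at -0.20 (-0.22 to -0.18) to *Tap1* at 0.17 (0.08 to 0.27). The lowest ratio was that of *Ifitm2*, from 1363 to 1058 CPM.

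Aerocytes had 5 of 40 members called higher and none lower (background 3.7% and 0.565%), with a median of 0.25 against 0.03 for all genes. Their median depth was 6459 UMIs in *Cebpa* FF and 3126 in *Cebpa* KO, and their markers were at 18216 and 14704 CPM. *Zbp1* had 11 UMIs in the *Cebpa* FF and 63 in the *Cebpa* KO library, 1.19 and 7.12 CPM, a ratio of 5.98. *Ifitm1* went from 4.0 to 14.4 CPM (3.59-fold), *Rsad2* from 5.41 to 17.1 (3.16-fold), *Ifit2* from 11.5 to 27.7 (2.41-fold) and *Oas2* from 2.71 to 6.1 (2.26-fold). All 5 were below 30 CPM in both libraries. *Gbp4* was at a log2 ratio of 0.88 (0.70 to 1.06), *Irf7* at 0.57 and *Iigp1* at 0.52. *Ifitm3* was at 0.92 (0.86 to 0.98), from 370.2 to 698 CPM. In class I, *H2-D1* was again lower, at -0.25 (-0.27 to -0.22), and *Tapbp* higher, at 0.29. *S100a8* and *S100a9* were at 5.52 CPM in *Cebpa* FF and 311 in *Cebpa* KO aerocytes. Of the leukocytes in the *Cebpa* KO library, neutrophils had *Ifitm1* at 2494 and *Rsad2* at 109 CPM and classical monocytes had *Zbp1* at 109, while T cells had *Ifitm1* at 6.79. The part of leukocyte RNA in these ratios was not tested.

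*Zbp1* and *Oas2* also led venous cells without being called. *Zbp1* was at a log2 ratio of 0.90 (0.42 to 1.39) and *Oas2* at 0.82 (0.24 to 1.41), with *Irf7* at 0.57, *Ifi44* at 0.53 and *Irf9* at 0.49. *Gbp4* and *Ifi47* were at 0.38 and 0.27, and the class I genes stayed between -0.13 (*H2-D1*) and 0.11 (*H2-K1*). In arterial cells the *Cebpa* KO library had 67 cells, and the intervals of 29 of 33 members held 0. The largest arterial values were *Ifit3* at 0.62 (-0.09 to 1.30), *Ddx58* at -0.42, *Igtp* at 0.39 and *Bst2* at -0.38 (-0.59 to -0.18). In lymphatic cells *Irf9* was at 0.74 (0.04 to 1.44), *Ddx58* at -0.57, *Ifi44* at 0.53, *H2-K1* at 0.50 (0.35 to 0.65) and *Gbp2* at -0.40.

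In AT2 cells, the cells in which Sftpc-CreER acts, the members were higher in the *Cebpa* KO library, from class I genes to GTPases. There were 463 cells with a median of 20684 UMIs in the *Cebpa* FF and 315 with a median of 1566 in the *Cebpa* KO library. Of 29 members, 13 were called higher and none lower, where the background was 6.52% higher and 0.733% lower. The member median was 0.80, and that of all genes 0.17. All 29 lay above 0, as did 68.5% of all genes.

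Class I and effector genes of AT2 cells were as follows. *B2m* was at 310.2 CPM (299 to 322) in *Cebpa* FF and 641 (602 to 681) in *Cebpa* KO AT2 cells, a ratio of 2.07. *H2-K1* and *H2-D1* were nearer, from 637 to 917 and from 673 to 843 CPM. *Ifitm3* went from 98.6 CPM (92.3 to 105) to 330 (302 to 359), a ratio of 3.34 that was the most precise of the large ones. *Isg15* had 63 and 54 UMIs, 6.94 and 33.3 CPM (4.79-fold), and *Ifitm1* 47 and 44 UMIs, 5.18 and 27.1 CPM (5.23-fold), with 44.7% of the *Cebpa* FF UMIs of *Ifitm1* in 1 cell. *Oasl2* was 3.68-fold, *Rtp4* 2.26-fold and *Bst2* 2.05-fold higher. The interval of none of these 13 ratios held 1.

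The GTPases of AT2 cells were called in 6 of 7 cases, from very low levels. *Iigp1* was at 6.61 CPM in the *Cebpa* FF and 27.7 in the *Cebpa* KO library (4.19-fold), *Gbp4* at 4.19 and 17.3 (4.12-fold), *Gbp2* at 4.96 and 19.1 (3.85-fold), and *Gbp7* at 10.5 and 37.6 (3.59-fold). *Ifi47* was 3.68-fold and *Igtp* 2.74-fold higher. Each of these genes was at 58.2 CPM or more in gCap cells of both libraries, so the AT2 levels remained far below those of the vessels. The transcription factors *Irf9* and *Irf1* were at log2 ratios of 0.80 and 0.51, the sensors *Ifih1* and *Ddx58* at 0.64 and 0.58, and *Psmb9* at 0.74, all with intervals above 0.

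Markers of vascular and blood cells moved with these AT2 ratios. The pan-endothelial level was higher in *Cebpa* KO AT2 cells (474 and 1287 CPM), hemoglobin went from 25.1 to 771 CPM, and *S100a8* and *S100a9* from 1.43 to 752. In cells with at least 3000 UMIs (430 and 91 cells), 6 members were called and the median was 0.52. When the profile of the library was subtracted until the pan-endothelial list was at 0, which took 6.85% of *Cebpa* FF and 20.7% of *Cebpa* KO UMIs, 11 were called, the median was 0.38 and 21 of 29 stayed above 0. *B2m* then lost its ratio (log2 ratio -0.0054), while *Ifitm3*, *Isg15*, *Gbp7*, *Gbp2* and *Iigp1* stayed called, as the plot for AT2 and gCap cells shows. With every cell thinned to 1000 UMIs, and so given equal weight, 23 were called. The first 2 settings were chosen after the data had been seen. For all of these settings, here and in the types below, the share of all genes called at 2-fold was not computed. Their counts therefore cannot be read against the background of the main setting.

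**Figure D4:**
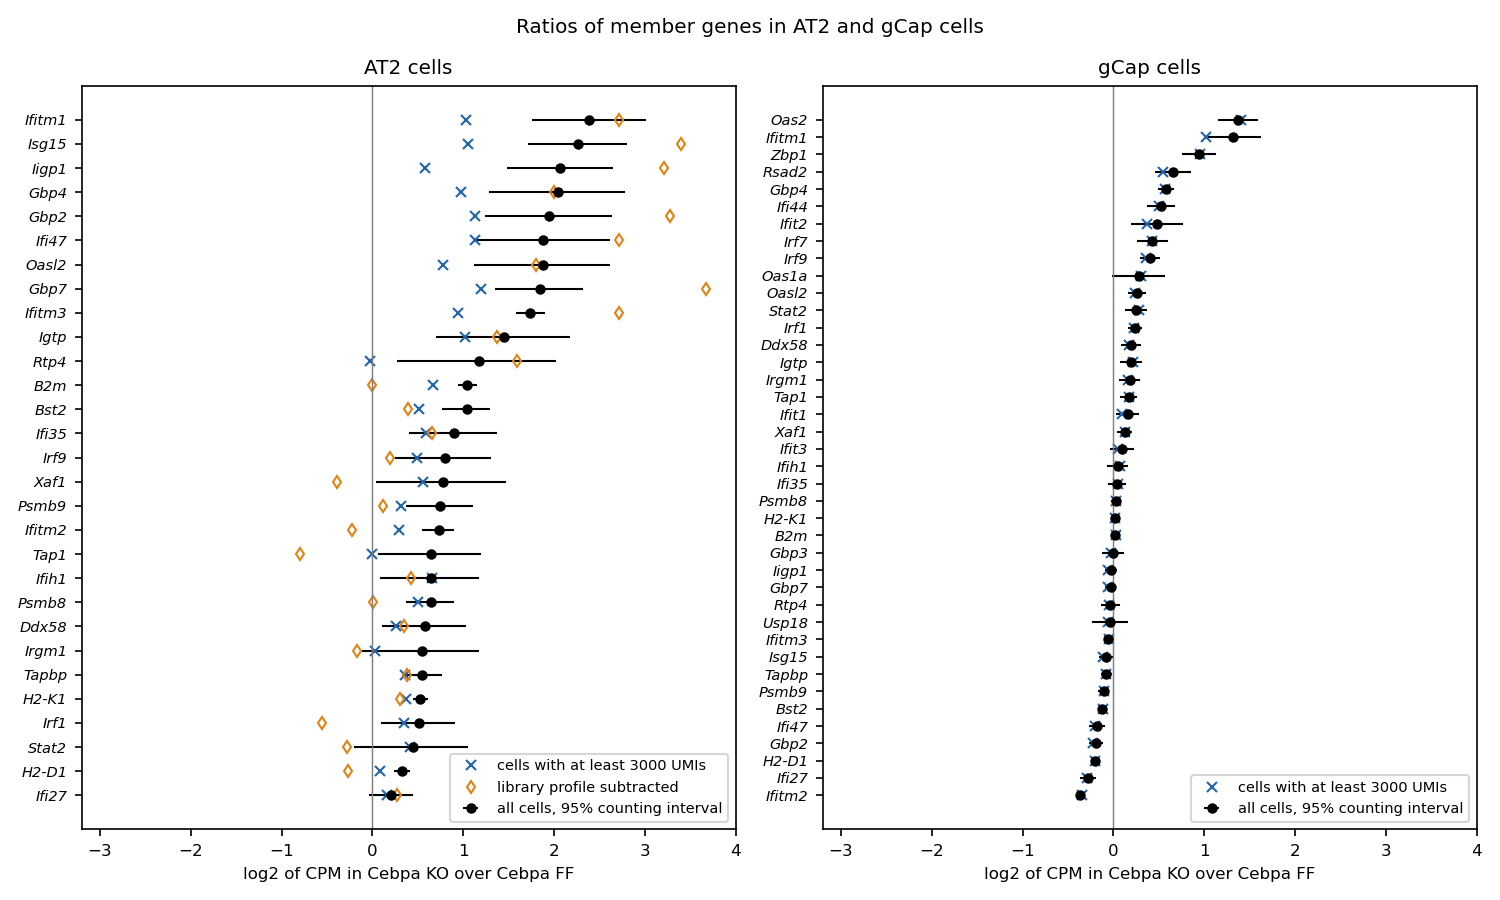
Log2 of *Cebpa* KO over *Cebpa* FF CPM of each readable member in AT2 (left) and gCap cells (right); black points are all cells with exact 95% counting intervals, crosses only cells with at least 3000 UMIs, and diamonds (AT2) the values after the library profile was subtracted. In gCap cells the crosses lie on the points, while in AT2 cells they lie closer to 0 for nearly all members.

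AT1 cells were few (94 and 62) and 10 members could be read. Of these, 4 were called higher and 1 lower, where 11.6% of all genes were higher and 11.6% lower, the widest background of any type. *Ifitm3* went from 145 CPM (55 UMIs) to 971 (257 UMIs), a ratio of 6.69, and *Ifitm2* from 106 to 431, a ratio of 4.08. *H2-K1* went from 509.6 to 1353 CPM (2.65-fold) and *Psmb8* from 73.9 to 170.0 (2.30-fold). *Ifit3* went the other way, from 164 CPM (126 to 210), the highest of any *Cebpa* FF type, to 68.0, a ratio of 0.42 (62 and 18 UMIs). Pan-endothelial RNA was at 528 CPM in *Cebpa* FF and 3057 in *Cebpa* KO AT1 cells, and the AT1 markers themselves were at 30459.9 and 9371 CPM. The pan-endothelial subtraction took 7.63% of *Cebpa* FF and 49.3% of *Cebpa* KO UMIs, after which 2 members were called higher and 2 lower. Subtraction until *Sftpc* was at 0 took 40.3% and 55.9%. The part of RNA from other cells in the AT1 ratios was not tested.

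Ciliated cells differed in depth as AT2 cells did, with medians of 16540.0 and 1667 UMIs in 204 and 194 cells. Of 27 members, 5 were called higher and none lower (background 3.71% and 1.03%), and the median was 0.57 against -0.06. *Psmb8* went from 30.03 to 101 CPM (3.35-fold), *B2m* from 203 to 518 (2.55-fold), *Psmb9* from 21.1 to 44.8 (2.12-fold), *Isg15* from 7.14 to 30.5 (4.28-fold) and *Ifitm3* from 288 to 596 (2.07-fold). All 6 readable class I genes lay above 0 with their intervals. *Usp18* and *Ifi35*, the effectors highest in this type, lay below 0. *Gbp7* was at 0.84, *Irf1* at 0.63, *Stat2* at 0.62 and *Ifih1* at 0.47. In cells with at least 3000 UMIs (198 and 46) the median was 0.08 with 2 called, and the pan-endothelial level was 586 CPM in *Cebpa* FF and 1252 in *Cebpa* KO ciliated cells. After its subtraction 3 members were called higher and 2 lower, the median was 0.18, and 14 of 27 lay above 0.

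Fibroblasts had smaller differences. Median depth was 4801 UMIs in *Cebpa* FF and 2024 in *Cebpa* KO alveolar fibroblasts. In alveolar fibroblasts 5 of 34 members were called higher and none lower (background 3.97% and 1.22%), with a median of 0.43 against -0.01. *Gbp4* went from 6.61 to 28.5 CPM (4.32-fold), *Ifit1* from 9.77 to 30.5 (3.12-fold, with 27.7% of the *Cebpa* KO UMIs in 1 cell), *Ifi47* from 13.2 to 34.4 (2.60-fold), *Tap1* from 20.97 to 47.4 (2.26-fold) and *Isg15* from 20.1 to 43.5 (2.16-fold). *H2-K1* was at a log2 ratio of 0.88 (0.78 to 0.99), *Irf9* at 0.45, *Irf1* at 0.44 and *Ifih1* at 0.24. The pan-endothelial level was 993 CPM in *Cebpa* FF and 2525 in *Cebpa* KO alveolar fibroblasts, and its subtraction took 14.3% and 40.7% of UMIs. After it *Isg15* was lower in the *Cebpa* KO library (log2 ratio -1.05), the median was 0.11, and 3 members were called in each direction. The part of capillary RNA in these ratios was not tested.

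In adventitial fibroblasts 5 of 35 members were called higher and none lower (background 2.13% and 0.849%), and the median was 0.39 against 0.05. These were *Zbp1* (9.75 to 22.5 CPM, 2.31-fold), *Isg15* (36.3 to 82.5, 2.27-fold), *Rtp4* (18.4 to 40.98, 2.23-fold), *Oasl2* (30.9 to 67.6, 2.19-fold) and *Gbp4* (8.94 to 18.4, 2.06-fold). Unlike in the alveolar fibroblasts, the transcription factors lay close to them, with *Irf9* at a log2 ratio of 0.89 (0.48 to 1.31) and *Irf7* at 0.83. *H2-K1* and *B2m* were at 0.63 and 0.33, and *Igtp* at 0.80. The pan-endothelial level was nearer here, at 993 CPM in *Cebpa* FF and 1511 in *Cebpa* KO cells, and after its subtraction 6 members were called and the median was 0.30. Median depth was not alike, at 8896 UMIs in *Cebpa* FF and 1804 in *Cebpa* KO cells.

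Myofibroblasts had 30 readable members and none called (background 2.99% higher and 1.4% lower), with a median of 0.40 against 0.06. *Irf9* was at 0.94 (0.35 to 1.53), *Oasl2* at 0.85, *Ifitm1* at 0.79, *Tap1* at 0.74, *Psmb9* at 0.68 and *Gbp7* at 0.57. The pan-mesenchymal level of these cells was 1712 CPM in *Cebpa* FF and 5835 in *Cebpa* KO, so the cells in this gate differed between the libraries in more than the members. The pan-endothelial level was 1186 and 1828 CPM, and the median after its subtraction was 0.26. Depth differed too, with medians of 5495 UMIs in *Cebpa* FF and 1652 in *Cebpa* KO myofibroblasts. Smooth muscle had 16 readable members, with 2 called higher and 1 lower (background 3.17% and 1.51%) and a median of 0.34 against -0.03. *Psmb9* went from 25.9 to 57.6 CPM (2.23-fold). *Ifit3* went from 5 to 48 UMIs (9.95 and 70.9 CPM, 7.12-fold), but 70.8% of the 48 were in 1 cell, as were 85.3% of the 34 *Ifit1* UMIs. *Ifitm1* was lower, from 189 to 85.6 CPM, a ratio of 0.45. Median depth was 5614 UMIs in *Cebpa* FF and 1644 in *Cebpa* KO smooth muscle cells. The pan-endothelial level was 742 CPM in *Cebpa* FF and 1656 in *Cebpa* KO smooth muscle cells. After its subtraction, which took 10.7% and 26.7% of UMIs, the median was -0.03 and 7 of 16 members lay above 0.

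Pericytes, the contractile cells wrapped around capillaries, had 8 of 28 members called higher and 1 lower (background 6.79% and 3.57%), and a median of 0.81 against -0.04. *Psmb9* went from 49.8 to 155 CPM (3.10-fold), *B2m* from 688 to 1604 (2.33-fold) and *H2-K1* from 557 to 1209 (2.17-fold). *Iigp1* was 2.65-fold, *Igtp* 2.49-fold, *Irgm1* 2.31-fold, *Irf1* 2.23-fold and *Gbp2* 2.18-fold higher. *Rtp4* was at 0.86, *Stat2* at 0.96 and *Ddx58* at 0.14 on the log2 scale. The opposite change was in *Ifitm1*, the member most particular to pericytes by level, from 1769 CPM (1692 to 1849) to 744 (668 to 825), a ratio of 0.42. Median depth was 4388 UMIs in *Cebpa* FF and 2150 in *Cebpa* KO pericytes. The pericyte markers were at 16935 and 9405 CPM and the pan-endothelial level went from 1383 to 4440.5 in the 93 *Cebpa* KO pericytes. Subtracting the library profile took 71.6% of their UMIs and turned *B2m* and *H2-K1* to the other direction, so the pericyte values cannot be told apart from capillary RNA in the same droplets.

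Platelets had 13 readable members, none called in either direction (background 3.33% higher and 1.14% lower), and a median of 0.18 against 0.01. *Igtp*, highest in this type, was at a log2 ratio of -0.62 (-0.87 to -0.37), and *Iigp1* at -0.80 (-1.67 to 0.01). *Ifi27* was at 0.97, *Tapbp* at 0.77, *H2-K1* at 0.69 and *Ifit1* at 0.67. Median depth was 1025 UMIs in *Cebpa* FF and 1537 in *Cebpa* KO platelets. Pan-endothelial RNA was alike in the 2 libraries, at 2008 CPM in *Cebpa* FF and 2064 in *Cebpa* KO platelets. Its subtraction took 29.0% and 33.3% of their UMIs, after which the median was 0.08.

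Depth was then matched by drawing 1000 UMIs from each cell without replacement and leaving out shallower cells. Of the 560 pairs of a member and a type, 67 had a higher and 9 a lower share of cells with a UMI in the *Cebpa* KO library with intervals apart. Among the 393 pairs with at least 50 UMIs these were 61 and 9 (15.5% and 2.29%), where the same rule over all genes with at least 50 UMIs gave a background of 3.86% higher and 1.91% lower. Of such members, 12 of 29 had a higher share in AT2 (background 6.02%), 7 of 27 in ciliated cells (3.25%) and 3 of 10 in AT1 cells (4.53%). In the mesenchyme these were 7 of 34 in alveolar fibroblasts (5.24%), 5 of 35 in adventitial fibroblasts (3.73%), 4 of 30 in myofibroblasts (3.35%), 3 of 16 in smooth muscle (2.23%) and 4 of 28 in pericytes (2.83%). In vessels there were 8 of 40 in aerocytes (5.5%) and 6 of 40 in gCap cells (6.77%), none in venous (0.585%), arterial (0.49%) and lymphatic cells (0.853%), and in platelets 2 of 13 (2.24%). The lower shares were 2 of 40 each in aerocytes and gCap cells, near the backgrounds of 2.89% and 4.74%, 2 of 28 in pericytes (1.75%), and 1 each in venous cells (0.838%), alveolar fibroblasts (1.55%) and platelets (1.44%). The 9 were *H2-D1* and *Ifitm2* in aerocytes and gCap, *Ifitm2* in venous cells (78.2% and 63.3%), *Ifitm1* and *Ifitm2* in pericytes, *Ifi27* in alveolar fibroblasts and *Igtp* in platelets. Arterial and lymphatic cells had none with intervals apart.

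**Figure D5:**
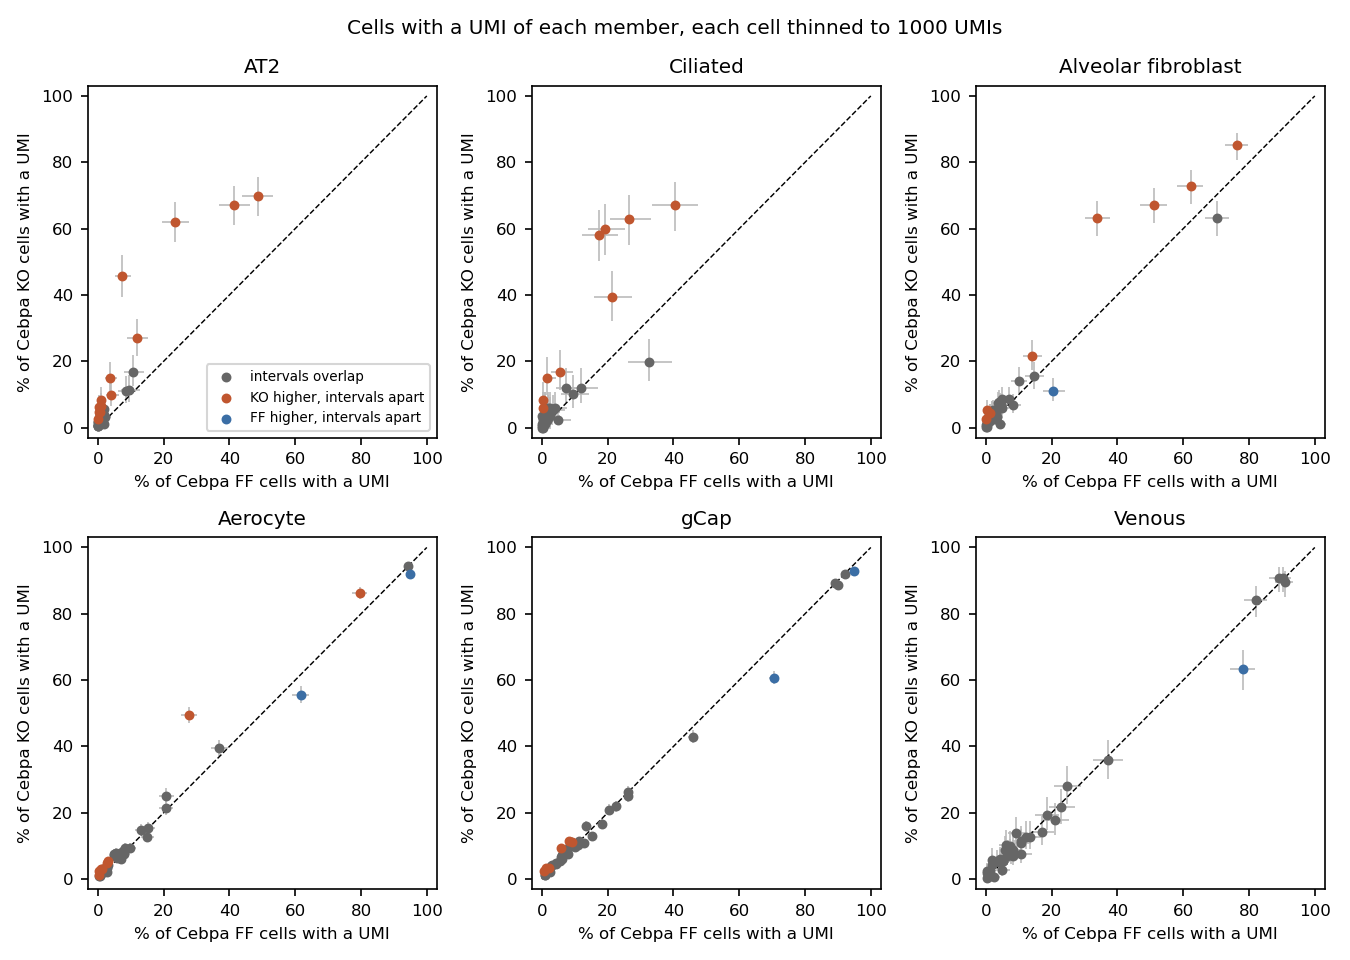
Percent of cells with a UMI of each member after thinning to 1000 UMIs, *Cebpa* FF on the x axis and *Cebpa* KO on the y axis, in 6 types; grey lines are exact 95% intervals, the dashed line marks equal shares, and orange and blue points have intervals apart with *Cebpa* KO or *Cebpa* FF higher. Points lie near the line in gCap, venous and aerocytes but for *Ifitm2* in all 3 and *Ifitm3* in aerocytes, and *B2m*, *H2-K1*, *H2-D1* and *Ifitm3* lie well above it in AT2 and ciliated cells.

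At matched depth the class I genes of AT2 cells had intervals apart. *B2m* was found in 23.5% of 447 *Cebpa* FF and 62.1% of 256 *Cebpa* KO cells, *H2-K1* in 41.4% and 67.2%, and *H2-D1* in 48.5% and 69.9%. Without thinning the order was the reverse, with *B2m* in 93.95% and 85.1% of cells at median depths of 20684 and 1566 UMIs. *Ifitm3* was found in 7.38% and 45.7%, *Ifitm2* in 11.9% and 27.0%, and *Bst2* in 3.58% and 14.8%. T cells of the *Cebpa* KO library, whose *Ifitm3* level was the lowest, had *Ifitm3* in 18.2% of 313 cells. Their median was 7836 UMIs before thinning, against 1566 in *Cebpa* KO AT2 cells. The T cell share is therefore no measure of free RNA in AT2 cells, and the part of free RNA in the AT2 shares was not tested. In ciliated cells *B2m* was found in 17.2% and 58.1%, *Ifitm3* in 19.2% and 59.9%, and *Psmb8* in 1.48% and 14.97%. Thinning matched depth but did not remove RNA of other cells. The pan-endothelial subtraction took 6.85% of *Cebpa* FF and 20.7% of *Cebpa* KO UMIs in AT2 cells, where *B2m* lost its ratio after it. In ciliated cells it took 8.46% and 20.2%. Whether the shares at matched depth would stay apart after it was not tested.

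Capillary cells at matched depth gave mostly small differences. In aerocytes *Ifitm3* was found in 27.7% of 1371 *Cebpa* FF and 49.5% of 1538 *Cebpa* KO cells, the largest shift of a member in any endothelial type. The *Ifitm3* level in *Cebpa* FF gCap cells was 2869 CPM, and the part of gCap RNA or gCap cells in the aerocyte values was not tested. *H2-K1* was found in 79.6% and 86.4%, and *H2-D1* in 94.9% and 91.9%. In gCap cells *Ifitm2* was found in 70.5% and 60.7%, *Irf9* in 5.73% and 9.32%, and *Gbp4* in 8.13% and 11.5%. Pericytes had *Ifitm1* in 77.2% and 45.2%, and platelets *Igtp* in 44.5% and 29.5%. Thinning left out 210 of 439 *Cebpa* FF and 45 of 235 *Cebpa* KO platelets. *Ifi27* was found in fewer alveolar fibroblasts of the *Cebpa* KO library (20.5% and 11.1%).

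Cells that held at least 8 members at once were most frequent among gCap and venous cells. Among the 33 members outside class I, at least 8 were found in 6.81% of gCap cells of the *Cebpa* FF (6.08% to 7.60%) and 6.77% of those of the *Cebpa* KO library (5.80% to 7.84%), and in 5.93% and 6.18% of venous cells. In AT2 cells none of 447 and 2 of 256 had as many, and at least 3 were found in 2.01% and 26.6%. In aerocytes at least 8 were found in 1.02% (0.559% to 1.71%) and 2.21% (1.54% to 3.08%), with overlapping intervals. Their share with at least 5 was 12.3% (10.6% to 14.2%) and 17.2% (15.4% to 19.2%), with intervals apart. At least 5 were found in 19.6% and 19.0% of pericytes, and in 22.7% of *Cebpa* KO neutrophils. Such shares were not computed for other sets of genes. Classical monocytes and neutrophils of the *Cebpa* KO library had 8 or more in 2.74% and 2.22%.

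Genes of the pathway outside the members were read from lists chosen, like the members, with earlier results of these data known. Their counts are therefore no independent check of the members. Of 21 interferon genes, *Ifng* had 11 UMIs in the *Cebpa* FF and 159 in the *Cebpa* KO library, 52 of them in NK cells (122 CPM), *Ifnab* had 1 and 2, *Ifnk* had 1 in the *Cebpa* FF library, and no other had any UMI. Apart from *Ifng*, interferons were thus hardly detectable at this depth. The *Cebpa* FF library held 5 NK and 27 T cells and the *Cebpa* KO library 80 and 315, so the *Ifng* totals are not a comparison per cell. The receptor and JAK-STAT genes are given for capillary cells. Of 15 readable in each type, 2 were called higher in aerocytes (background 3.7%) and 1 in gCap cells (3.32%). In aerocytes these were *Socs3*, an inhibitor of JAK signals (18.1 to 47.3 CPM), and *Irf8*, a factor of myeloid cells (6 and 65 UMIs), which was also the gCap gene (36 and 104 UMIs). Of 35 other interferon-induced genes, 9 of 19 readable were called higher in AT2 cells (background 6.52%) and 5 of 24 in adventitial fibroblasts (2.13%). In pericytes 5 of 13 were called higher (6.79%), in aerocytes 4 of 29 (3.7%), in gCap cells 2 of 31 (3.32%) and in venous cells 0 of 25 (0.769%). None was called lower in any of the 14 types, where the background ran from 0.565% in aerocytes to 11.6% in AT1 cells. Among those called higher was *Slfn5* in AT2 cells (14.7 to 66.5 CPM), ciliated cells (21.1 to 78.3) and alveolar fibroblasts (34.2 to 125). In the *Cebpa* FF library *Slfn5* was highest in aerocytes, at 579 CPM. The pan-endothelial level was higher in the *Cebpa* KO cells of these types, and the part of capillary RNA in the *Slfn5* values was not tested.

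Chemokines induced by interferon gamma were at the edge of detection in the capillaries. *Cxcl10* had 6 UMIs in *Cebpa* FF and 85 in *Cebpa* KO aerocytes and 23 and 75 in gCap cells. *Cxcl9* had 0 and 69 in gCap cells, a ratio of 35.6 with the 0 raised to the floor of 3 UMIs. In the *Cebpa* KO library both were highest in classical monocytes (*Cxcl10* at 123 and *Cxcl9* at 37.5 CPM). The part of leukocyte RNA in the capillary counts was not tested. The other class I genes were led by the nonclassical *H2-Q7*, which went from 33.7 to 102 CPM in AT2 cells, from 60.6 to 182 in alveolar fibroblasts and from 86.9 to 278 in pericytes. In the *Cebpa* FF library *H2-Q7* was highest in gCap cells, at 742 CPM. The pan-endothelial level was also higher in the *Cebpa* KO cells of these types, and the part of capillary RNA in the *H2-Q7* values was not tested. None of the 18 other class I genes was called in gCap cells (background 3.32% higher and 1.21% lower) or aerocytes (3.7% and 0.565%). The constitutive proteasome subunits *Psmb5*, *Psmb6* and *Psmb7*, which *Psmb8* and *Psmb9* and their partner replace, were called in none of the 14 types. Their list medians ran from -0.15 in ciliated cells to 0.24 in AT1 cells. The background by type ran from 0.769% to 11.6% higher and from 0.565% to 11.6% lower. At such shares few calls are possible among 3 genes, so the count is no result about these subunits. *Tmem173* (Sting) was higher in aerocytes (0.757 to 6.22 CPM), gCap (2.12 to 9.77) and venous cells (7.22 to 18.2). It is 1 of 7 sensors and adaptors with a row outside the members, and the others are not given here. The part of leukocyte RNA in these low values was not tested.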

How the data were processed

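Lung scRNA-Seq of 1 *Cebpa* FF and 1 *Cebpa* KO library was analysed. The deposited files hold UMI counts per gene and cell that the authors made with Cell Ranger on mm10 (version 6.1.1 in the submitters' processing notes, 5.0.0 in the file header). Barcodes under 200 genes or over 20% mitochondrial UMIs were removed. Types were gated by raw counts of marker genes, and the form of the gates was settled after the counts had been seen. Cells that met gates of several types were left out (400 and 836 cells) in place of a doublet caller, and 1351 and 3132 met none. UMIs were summed per type and library and given as CPM with exact Poisson intervals. Ratios were taken with exact conditional intervals and sums floored at 3 UMIs. Members and lists were chosen with earlier results of these data known. Named genes were the 5 highest members of a type, members at 2-fold or more with at least 50 UMIs and an interval without 1, and in each role group the 2 largest ratios of each type. A result of the receptor and JAK-STAT list in AT2 cells is not reported here. Genes named outside this rule were chosen after their values were seen. Gates, weights of cells, totals, depth, minimum UMIs and free RNA were varied. Python 3.11.15, numpy 2.4.6, pandas 2.3.3, scipy 1.17.1 and matplotlib 3.10.9 were used, and the code was tested on simulated data.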

Additional observations from a re-analysis of the deposited data

How the results depend on the processing

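No paired analysis was possible because each genotype had 1 library. Ratios of the named members were recomputed 604 times under alternatives, of which 474 stayed within their counting interval, 118 moved beyond it, and 12 changed direction. Cells with at least 3000 UMIs, the pan-endothelial subtraction and, for matched depth, 2000 UMIs and stricter gates were alternatives chosen after seeing the data. The causes of the changes were not tested.

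After the pan-endothelial subtraction the log2 ratio of *B2m* was -0.0054 in AT2 cells and -4.11 in pericytes, that of *Isg15* -1.05 in alveolar fibroblasts, and those of *H2-K1* and *Ifitm1* -3.83 and 0.021 in pericytes. In cells with at least 3000 UMIs *Rtp4* was at -0.024 in AT2 cells. Thinned to 1000 UMIs, *Ifit3* was at -0.21 in smooth muscle, and *Gbp2*, *Iigp1* and *Igtp* at -0.17, -0.35 and -0.46 in pericytes. Pericyte *Gbp2* was at -0.073 when thinned to 2000 UMIs and -0.073 as a mean over cells.

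A member median was counted as moved when it left the counting interval of the member nearest to it. Such medians were the following. The AT2 median (0.80) was 1.68 and 1.802 when thinned to 1000 and 2000 UMIs and 1.496 as a mean over cells. The AT1 median (0.89) was 0.71 with 1 more marker, 1.18 and 1.39 when thinned, 0.75 as a mean over cells, and 1.24 and 0.41 after subtraction to *Sftpc* or pan-endothelial markers at 0. The ciliated median (0.57) was 1.26 as a mean over cells. The lymphatic median (0.08) was 0.37 when thinned to 1000 UMIs, 0.53 as a mean over cells and -0.30 in cells with at least 3000 UMIs. The alveolar fibroblast median (0.43) was 0.61 and 0.62 when thinned, 0.70 as a mean over cells, and 0.33 and 0.11 after the 2 subtractions. The pericyte median (0.81) was 0.42 and 0.58 when thinned, 0.44 as a mean over cells and 0.67 after the pan-endothelial subtraction. The platelet median (0.18) was 0.36 as a mean over cells, 0.34 with a minimum of 20 UMIs and -0.36 in cells with at least 3000 UMIs.

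The 49 pairs higher at 2-fold became 102 and 86 when thinned to 1000 and 2000 UMIs, 93 as a mean over cells and 84 with a minimum of 20 UMIs. The 3 lower pairs became 7 and 12 when thinned, 5 with 1 more marker, 6 with a minimum of 20 UMIs, 6 in cells with at least 3000 UMIs, and 5 and 16 after subtraction to *Sftpc* and pan-endothelial markers at 0. The share of all genes called at 2-fold was not computed under these alternatives, so these counts have no background. The 9 pairs with a lower share at matched depth became 2 with 1 more marker. The other 155 values stayed within that interval or, for counts, within 1.5 times. Those intervals are wide, and 27 of the medians inside them still moved by over 1.5 times or changed sign. The AT2 median was 0.52 in cells with at least 3000 UMIs and 0.38 after the pan-endothelial subtraction. The ciliated median was 1.06 when thinned to 1000 UMIs, 0.082 in cells with at least 3000 UMIs, and 0.26 and 0.18 after the subtractions to *Sftpc* and pan-endothelial markers at 0. Smooth muscle (0.34) ran from -0.031 after the pan-endothelial subtraction to 0.88 as a mean over cells, adventitial fibroblasts (0.39) up to 0.73 as a mean over cells, and myofibroblasts (0.40) down to 0.23 in cells with at least 3000 UMIs. Arterial cells (0.07) ran from -0.13 with 1 more marker to 0.22 when thinned to 1000 UMIs and venous cells (0.07) from 0.031 to 0.13 under the same settings. Lymphatic cells were at -0.028 with 1 more marker and platelets at 0.050 when thinned to 2000 UMIs. With 1 library per genotype, the spread between mice is unknown, and counting intervals do not cover it.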

Other observations

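The leukocytes, of which the *Cebpa* FF library held under 50 cells of each type, differed among themselves in the *Cebpa* KO library. GTPase sums were 399 CPM in T cells, 344 in NK cells and 222 in B cells, and lowest in dendritic cells at 111, where *Psmb8*, *Psmb9* and *Tap1* were at their highest (681, 255 and 118 CPM). Sensor sums were highest in classical monocytes at 233 CPM. Alveolar macrophages were low in nearly every role group, with an effector sum of 663 CPM, a GTPase sum of 175 and a transcription factor sum of 89.3. *Irf7* was at 7.26 CPM there and *Isg15* at 13.6, the lowest of the 24 types for both.

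Within the capillary, gCap cells and aerocytes differed in the same direction in both libraries. The GTPase sum was 1121 and 326 CPM in the *Cebpa* FF and 1139 and 427 in the *Cebpa* KO library, and the effector sum 5828 and 2604, and 5423 and 2897. *B2m*, *H2-D1* and *Irf1* were instead higher in aerocytes, with *Irf1* at 149 CPM in gCap cells and 178 in aerocytes of the *Cebpa* FF and at 176 and 204 in those of the *Cebpa* KO library.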
